A study of Mus musculus with 9 samples.

Results

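The genes described here are 34 of the 27719 genes in a count table of mouse colon RNA. They were taken by symbol as genes used to mark enteric neurons, enteric glia and interstitial cells of Cajal. By role, 12 belong to neuron structure and transmitter release, 8 to transmitters and peptides, 5 to development and trophic receptors, 6 to enteric glia and 3 to interstitial cells of Cajal. The study asked how electroacupuncture (EA) changes colitis caused by dextran sodium sulfate (DSS), a polysaccharide that damages the colon lining, in C57BL/6J mice. The 3 groups held 3 mice each. Control mice drank distilled water. DSS mice drank 2.5% DSS for 7 days. DSS + EA mice drank the same DSS and, after 5 days of it, received EA at both ST36 points below the knee once a day for 5 days, each session lasting 30 minutes at 2 Hz and 0.2 mA. Control and DSS mice were held in the frame for the same time without current, so that holding was common to every group. Full-length cDNA from whole colon tissue was read on a nanopore sequencer. In whole tissue, fewer cells of a type and less RNA per cell cannot be told apart.

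The enteric nervous system lies in the colon wall as layers of ganglia whose neurons are ensheathed by glia. These neurons contract or relax the muscle and drive secretion through acetylcholine, nitric oxide and peptides such as vasoactive intestinal peptide and substance P. Interstitial cells of Cajal, which carry the receptor tyrosine kinase Kit and the calcium-activated chloride channel Ano1, pace the smooth muscle, and enteric glia carry S100b, Gfap and the transcription factor Sox10.

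The 9 libraries held 2627695 to 4235576 counts. Every group had counts for the neuronal genes Uchl1, Elavl4 and Prph in each of its mice, while Chat, the acetylcholine-synthesising enzyme and a defining gene of cholinergic neurons, had 1 count in control mouse 2, 1 in DSS mouse 2 and none in the other libraries. A count of 0 allows a level of up to 3 counts, which is 0.708 to 1.14 CPM (counts scaled to a common library size) in these libraries. Of the 34 genes, 25 had enough counts to be tested, and Elavl3, Snap25, Chat, Slc18a3, Ret, Gfra1, Sox10, Fabp7 and Cdh19 did not, with 0 to 23 counts in a mouse. Because a gene with few counts can pass that filter through the group in which it is high, the counts below describe the genes tested and not the whole list. DSS mouse 1 stood apart from the other DSS mice, with a summed neutrophil level of 2371 CPM against 23677 and 25895 CPM and a summed epithelial level of 10846 CPM against 4593 and 2532 CPM. Pancreatic acinar genes summed to 41866 and 16633 CPM in DSS + EA mice 2 and 3 and to 44 to 964 CPM in the other libraries. Mice are named 1 to 3 within their group throughout, with counts in that order, and a group's values are said to overlap or not on the CPM scale, which corrects for depth.

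In DSS mice the neuropeptide genes were higher and the pacemaker genes Kit and Ano1 were lower than in control mice. Of the 25 genes tested, 13 were higher and 3 were lower in DSS mice than in control mice at an adjusted p under 0.05, from edgeR's quasi-likelihood test with Benjamini-Hochberg adjustment over 12566 genes, which gives every adjusted p below. The same test called 21.5% of all genes tested higher and 19.5% lower. The median log2 fold change was 0.75 for the 25 genes and 0.02 for all genes tested. In DSS + EA mice 1 of the 25 was higher and 15 were lower than in DSS mice, against 17.2% and 18.3% of all genes tested, with a median of -1.21 against -0.02 for all genes. These comparisons share the DSS mice. DSS + EA mice differed from control mice in 1 gene that was higher and 1 that was lower, against 3% and 0.637% of all genes tested, and the median was -0.45 against 0.00. That comparison shares mice with both of the others. The same shares of all genes stand beside the counts of genes that this test called in each list below.

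**Figure D1:**
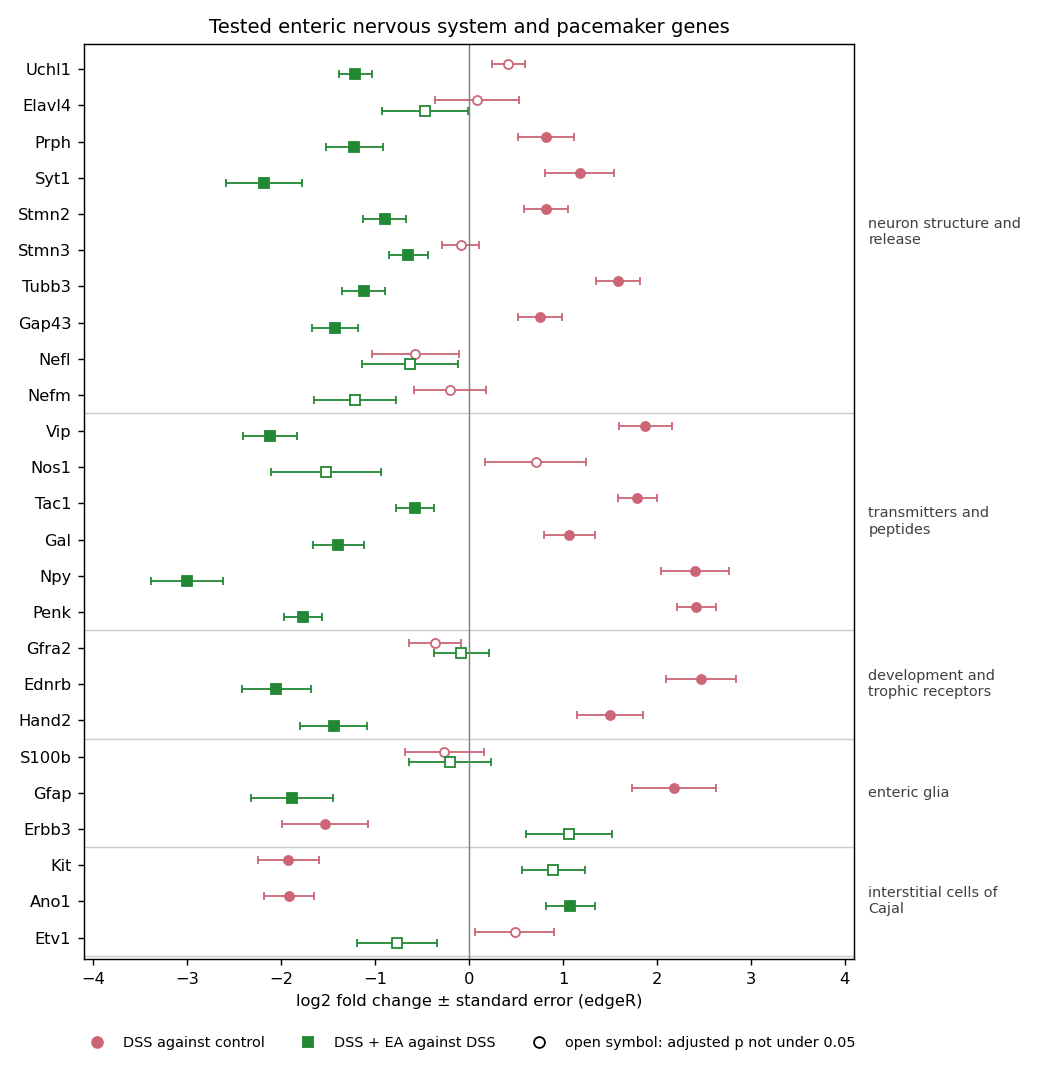
Log2 fold change with its standard error for the 25 tested genes, grouped by role, in DSS against control mice (circles) and DSS + EA against DSS mice (squares), 3 mice a group, filled where the adjusted p was under 0.05. Filled circles number 13 right of 0 and 3 left of it (Erbb3, Kit and Ano1), and filled squares number 1 right of 0 (Ano1) and 15 left of it.

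Counted over all 34 genes without a test, the DSS mice lay above every control mouse in 18 genes and below every control mouse in 5, and overlapped with them in 11. Among the 25 genes tested, 14 lay above, 4 below and 7 overlapped. For genes tested across the table, 26.2% lay above and 25.9% below in the same way. Against DSS mice, the DSS + EA mice lay above in 2 of the 34 genes, below in 20 and overlapped in 12. For the 25 tested the numbers were 2, 16 and 7, against 24.2% above and 23.3% below for genes tested across the table. Compared with control mice the DSS + EA mice lay above in 3 of the 34 genes (Tubb3, Tac1 and Penk), below in 10 and overlapped in 21. For the 25 tested the numbers were 3, 9 and 13, against 18% above and 14.2% below for genes tested across the table.

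Of the 8 transmitter and peptide genes, 6 were tested. Of these, 5 were higher in DSS than in control mice, all of them peptide genes, with a median log2 fold change of 1.83 over the 6, and 5 were lower in DSS + EA than in DSS mice, with a median of -1.65. Penk encodes proenkephalin, the precursor of the opioid enkephalins, and lies at chr4:4133531-4138819 on the minus strand (GRCm38, GENCODE annotation, as for every gene span below). It was counted 88, 80 and 67 times in control mice, 389, 512 and 523 times in DSS mice and 117, 115 and 122 times in DSS + EA mice. All DSS mice were above every other mouse, and the DSS + EA mice sat between the groups without overlapping either. Penk averaged 24.9 ± 2.23 CPM (SD, n = 3) in control, 133 ± 26.9 in DSS and 39.1 ± 3.69 in DSS + EA mice. It was 5.35-fold higher in DSS than in control mice (log2 fold change 2.42, standard error 0.20, adjusted p = 4.85e-05) and 3.41-fold lower in DSS + EA than in DSS mice (adjusted p = 0.000456). The remaining difference between DSS + EA and control mice, a log2 fold change of 0.65 with a standard error of 0.20, did not pass the test (adjusted p = 0.121). A transcript on the opposite strand, A830012C17Rik, shares 233 exonic bases with Penk.

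Npy encodes neuropeptide Y, a peptide of sympathetic fibres and of some enteric neurons, at chr6:49822710-49829507 on the plus strand. Its counts were low outside the DSS mice, at 10, 6 and 5 in control mice, 28, 43 and 54 in DSS mice and 5, 4 and 4 in DSS + EA mice. No DSS mouse overlapped with either other group, and the DSS + EA mice also lay below the control mice on the CPM scale. Npy was 5.29-fold higher in DSS than in control mice (log2 fold change 2.40, standard error 0.36, adjusted p = 0.00077). In DSS + EA mice it was 8.01-fold lower than in DSS mice (standard error of the log2 fold change 0.38, adjusted p = 0.000688), the one result among the 25 genes that also passed the study's own cut, an absolute log2 fold change above 2.5 with an unadjusted P under 0.01, which 6.41% of all genes tested passed in that comparison. In DSS against control and in DSS + EA against control none of the 25 passed that cut, against 10.2% and 2.08% of all genes tested. DSS + EA and control mice differed by -0.60 with a standard error of 0.44 (adjusted p = 0.555).

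Vip encodes vasoactive intestinal peptide, a relaxant and secretory transmitter of inhibitory motor and secretomotor neurons, at chr10:5639218-5647617 on the plus strand. Control mice had 149, 191 and 172 counts, DSS mice 451, 984 and 812, and DSS + EA mice 173, 134 and 120. The DSS mice stood above all others and the control and DSS + EA mice overlapped. Mean levels were 55.8 ± 15.5, 204 ± 54.8 and 46.9 ± 7.78 CPM in control, DSS and DSS + EA mice (SD, n = 3). Vip was 3.67-fold higher in DSS than in control mice (log2 fold change 1.87, standard error 0.28, adjusted p = 0.000821) and 4.35-fold lower in DSS + EA than in DSS mice (adjusted p = 0.000852). DSS + EA against control gave -0.25 with a standard error of 0.28.

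Tac1 encodes the precursor of substance P and neurokinin A, excitatory tachykinins of motor and sensory neurons, at chr6:7554879-7565834 on the plus strand. Its counts were 77, 70 and 42 in control mice, 238, 299 and 202 in DSS mice and 147, 105 and 166 in DSS + EA mice. The 3 groups did not overlap, with the DSS + EA mice between the other 2. The levels were 19.6 ± 3.59, 68.2 ± 7.32 and 45.5 ± 6.75 CPM (SD, n = 3). Tac1 was 3.46-fold higher in DSS than in control mice (log2 fold change 1.79, standard error 0.21, adjusted p = 0.000244). Tac1 was the gene that stayed higher in DSS + EA than in control mice, by 2.31-fold (log2 fold change 1.21, standard error 0.21, adjusted p = 0.0137), a call lost without control mouse 1 or 3 or DSS + EA mouse 1 or 3, where the adjusted p reached 0.0923. The fall from DSS to DSS + EA mice was -0.58 with a standard error of 0.20 (adjusted p = 0.0483) and was no longer called when any of the 9 mice was left out, with values of -0.72 to -0.45.

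Gal encodes galanin, a peptide of submucosal and myenteric neurons, at chr19:3409915-3414544 on the minus strand. The mice had 188, 84 and 142 counts as controls, 219, 416 and 358 with DSS and 126, 88 and 102 with DSS + EA. The DSS mice lay above both other groups, which overlapped with each other. Galanin transcripts were 2.09-fold higher in DSS than in control mice (log2 fold change 1.07, standard error 0.27, adjusted p = 0.0109) and 2.63-fold lower in DSS + EA than in DSS mice (adjusted p = 0.00436).

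Genes for the classical transmitters were sparse. Nos1, the neuronal nitric oxide synthase, had 16, 8 and 7 counts in control, 10, 32 and 17 in DSS and 1, 9 and 6 in DSS + EA mice, overlapping in every comparison. Its log2 fold changes of 0.71 (standard error 0.54) and -1.53 (standard error 0.59) did not pass the test, with adjusted p = 0.314 and 0.0657. Slc18a3, the vesicular acetylcholine transporter, whose gene lies within the span of Chat on the same strand, was not tested and had 2 or 3 counts in control, 7 to 9 in DSS and 2 to 4 in DSS + EA mice.

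**Figure D2:**
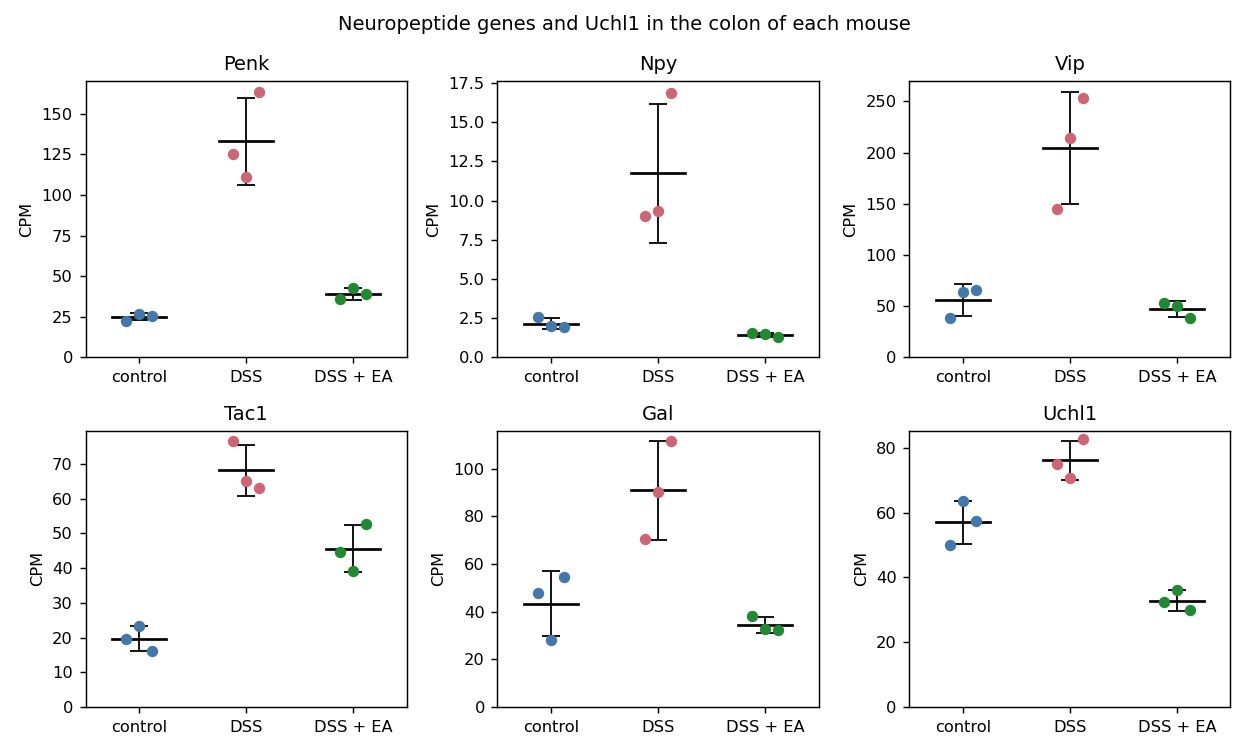
CPM of the 5 peptide genes and the neuronal gene Uchl1 in each of 9 mice (points), with the mean (wide line) and SD of each group of 3 mice. In each peptide gene the DSS mice sit above every mouse of both other groups, and Tac1 and Penk in DSS + EA mice sit above the control mice.

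To show the start regions of genes that moved together, the 250 bases before the transcription start are given for Vip, Npy and Gal, from RefSeq on GRCm38.p6. Of the 34 genes, 23 had such a window in the RefSeq table. Capitals mark TGACG, the half-site of the cyclic AMP response element, read on both strands and contained within the full element TGACGTCA.
Vip, chr10:5638968-5639217, plus strand: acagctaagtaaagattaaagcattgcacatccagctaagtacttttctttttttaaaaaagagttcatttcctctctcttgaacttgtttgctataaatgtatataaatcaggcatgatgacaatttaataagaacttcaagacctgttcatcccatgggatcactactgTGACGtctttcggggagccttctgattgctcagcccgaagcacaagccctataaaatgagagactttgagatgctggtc
Npy, chr6:49822460-49822709, plus strand: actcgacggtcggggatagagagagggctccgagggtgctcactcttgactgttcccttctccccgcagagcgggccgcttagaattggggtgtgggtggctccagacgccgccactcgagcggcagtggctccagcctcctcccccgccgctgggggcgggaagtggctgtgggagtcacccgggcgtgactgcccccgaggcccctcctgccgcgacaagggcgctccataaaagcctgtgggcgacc
Gal, chr19:3414545-3414794, minus strand: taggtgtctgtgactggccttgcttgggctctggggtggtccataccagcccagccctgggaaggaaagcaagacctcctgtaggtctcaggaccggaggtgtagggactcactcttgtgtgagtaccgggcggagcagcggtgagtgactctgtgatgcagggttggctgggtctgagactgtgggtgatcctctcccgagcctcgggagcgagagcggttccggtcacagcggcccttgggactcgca
The half-site stood once before Vip, with its first base 79 bases before the start, and not before Npy or Gal. Chat, Ednrb, Elavl4, Hand2, Nos1, Slc18a3, Tac1 and Vip held it, 8 of the 23 genes with a window, against 19.8% of 27025 genes and 17.8% of 32851 windows in the table. None of the 23 held the full element, which 1.77% of all genes in the table held, or the AP-1 motif TGANTCA, which 7.82% held. A match describes the letters in the window, and its absence says only that they are not there.

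Of the 12 structural genes of neurons, 10 were tested, and 5 were higher in DSS than in control mice, with a median log2 fold change of 0.59 over the 10. In DSS + EA mice 7 of the 10 were lower than in DSS mice, with a median of -1.17. Compared with control mice, DSS + EA mice had 1 lower, with a median of -0.71.

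Uchl1, a ubiquitin hydrolase abundant in every neuron (protein PGP9.5), had 197, 191 and 150 counts in control mice, 233, 326 and 265 in DSS mice and 107, 97 and 94 in DSS + EA mice. The 3 groups did not overlap, with DSS highest and DSS + EA lowest. The difference between DSS and control mice, 0.42 with a standard error of 0.17, did not pass the test (adjusted p = 0.0805), whereas DSS + EA was 2.32-fold below DSS (log2 fold change -1.21, standard error 0.18, adjusted p = 0.00126). DSS + EA was also 1.73-fold below control (log2 fold change -0.79, standard error 0.18, adjusted p = 0.041), a call lost without any 1 of the control or DSS + EA mice, with values of -0.88 to -0.71 and an adjusted p of up to 0.178. An antisense gene, Uchl1os, shares 295 exonic bases with Uchl1, and since the use of strand in counting is not given in the sources used here, reads of such a pair cannot be assigned to 1 of them.

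Tubb3, the neuronal beta tubulin, had the largest rise among the structural genes tested. It was counted 31, 26 and 25 times in control mice, 93, 97 and 88 times in DSS mice and 35, 38 and 35 times in DSS + EA mice. The DSS mice were far above the rest, and the DSS + EA mice lay just above the control mice with no overlap. Its levels of 8.7 ± 0.853, 26.2 ± 4.56 and 12 ± 1.93 CPM (SD, n = 3) gave a 3.00-fold higher value in DSS than in control mice (log2 fold change 1.59, standard error 0.23, adjusted p = 0.00073). From DSS to DSS + EA the change was -1.12 with a standard error of 0.23 (adjusted p = 0.00525).

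Syt1, the calcium sensor of vesicle release, had 18, 10 and 5 counts in control, 19, 46 and 21 in DSS and 5, 5 and 5 in DSS + EA mice. DSS mice were highest and DSS + EA mice lowest, with no overlap on the CPM scale. Syt1 rose by 1.18 on the log2 scale with a standard error of 0.36 (adjusted p = 0.0271), a call lost without control mouse 2 or 3 or DSS mouse 2 (adjusted p up to 0.101), and was lower in DSS + EA than in DSS mice by 4.54-fold (log2 fold change -2.18, adjusted p = 0.00347).

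Gap43, a growth cone protein of extending axons, was counted 43, 35 and 27 times in control, 52, 84 and 66 times in DSS and 19, 24 and 19 times in DSS + EA mice. Its groups did not overlap, again with DSS + EA lowest. The rise with DSS was 0.75 with a standard error of 0.23 (adjusted p = 0.027) and was not called without any 1 of the control mice or without DSS mouse 3 (adjusted p up to 0.0927), while the fall to DSS + EA was -1.42 with a standard error of 0.24 (adjusted p = 0.00242).

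Stmn2, a microtubule regulator of growing axons, had 87, 56 and 59 counts in control, 103, 159 and 141 in DSS and 57, 69 and 53 in DSS + EA mice. The DSS mice lay above the others, which overlapped. The log2 fold changes were 0.82 (standard error 0.23, adjusted p = 0.0183), not called without control mouse 1 or 2 or DSS mouse 3, and -0.90 (standard error 0.23, adjusted p = 0.0146), not called without DSS + EA mouse 1 or 3, with adjusted p up to 0.0837 and 0.0587. Prph, the intermediate filament peripherin, had 43, 26 and 41 counts in control, 55, 122 and 56 in DSS and 31, 28 and 21 in DSS + EA mice, so that DSS mice lay above the rest. Its rise of 0.82 was borderline (standard error 0.30, adjusted p = 0.0497) and kept its call in 3 of the 9 fits that left out a mouse, those without control mouse 3, DSS mouse 1 and DSS mouse 3, while its fall of -1.22 (standard error 0.30, adjusted p = 0.0126) was called in each.

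No rise with DSS was called for the other structural genes. Stmn3, a relative of Stmn2, had 73, 53 and 46 counts in control, 54, 82 and 49 in DSS and 33, 34 and 30 in DSS + EA mice. Control and DSS mice overlapped (-0.09, standard error 0.20), and the DSS + EA mice lay below both. Its fall from DSS to DSS + EA was -0.65 (standard error 0.21, adjusted p = 0.0347), called in 2 of the 9 fits that left out a mouse, those without DSS mouse 3 and DSS + EA mouse 2, with an adjusted p up to 0.106. Elavl4, a neuronal RNA-binding protein, had 5 to 13 counts in control, 10 to 13 in DSS and 4 to 12 in DSS + EA mice, with differences of 0.08 and -0.47 that did not pass. The neurofilament genes Nefl and Nefm had 3 to 22 counts in any mouse, and their differences of -0.57 and -0.20 in DSS against control and -0.63 and -1.21 in DSS + EA against DSS did not pass. They share 1108 exonic bases on opposite strands. Of the genes not tested, the release protein Snap25 had 2 to 8 counts in control, 8 to 20 in DSS and 3 or 4 in DSS + EA mice, and Elavl3 had 0 to 4 counts in all.

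Transmitter counts were also set against structural counts. Within each mouse the summed counts of the 8 transmitter genes were 0.982, 0.993 and 1.14 times those of the 12 structural genes in control mice, 2.08, 2.34 and 2.65 times in DSS mice and 1.78, 1.47 and 1.93 times in DSS + EA mice. This ratio is taken within a library, so that depth and scaling leave it as it is. The DSS + EA mice lay between the other groups and overlapped neither. The 5 peptide genes held 512 of the 531 transmitter counts in control mouse 1 and 2254 of the 2295 in DSS mouse 2. Uchl1 held 197 of the 541 structural counts in control mouse 1 and 326 of the 982 in DSS mouse 2. The ratio therefore mostly describes the peptide genes and the most counted structural genes. For single genes against Uchl1, Tac1 gave 0.391, 0.366 and 0.28 counts per Uchl1 count in control, 1.02, 0.917 and 0.762 in DSS and 1.37, 1.08 and 1.77 in DSS + EA mice. By this measure Tac1 was highest in the DSS + EA mice, with no overlap, while its CPM level was highest in the DSS mice. Npy per Uchl1 count was 0.0314 to 0.0508 in control, 0.12 to 0.204 in DSS and 0.0412 to 0.0467 in DSS + EA mice. Vip gave 0.756 to 1.15 in control, 1.94 to 3.06 in DSS and 1.28 to 1.62 in DSS + EA mice. Penk gave 0.419 to 0.447 in control, 1.57 to 1.97 in DSS and 1.09 to 1.3 in DSS + EA mice. For Vip and Penk the DSS + EA mice lay between the other groups without overlap. Gal gave 0.44 to 0.954 in control, 0.94 to 1.35 in DSS and 0.907 to 1.18 in DSS + EA mice. Its groups all overlapped. These ratios are descriptions and carry no test.

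**Figure D3:**
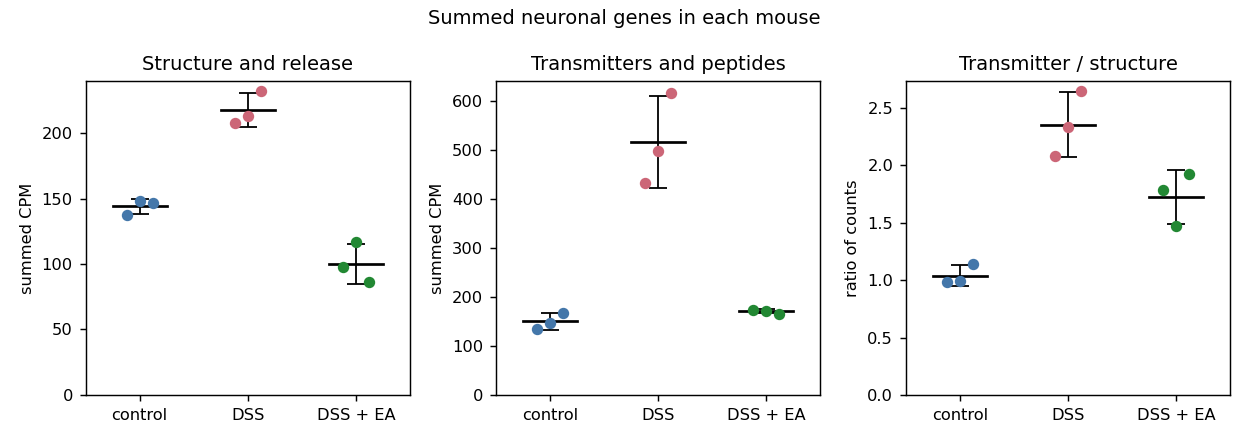
Summed CPM of the 12 structural and the 8 transmitter genes in each mouse, and the ratio of their summed counts, with group mean (wide line) and SD (3 mice a group). The structural sum is lowest in the DSS + EA mice, and the ratio is 0.982 to 1.14 in control, 2.08 to 2.65 in DSS and 1.47 to 1.93 in DSS + EA mice.

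Among the development and trophic receptor genes, Ednrb and Hand2 rose with DSS. Ednrb, the endothelin receptor B that guides colonisation of the gut by neural crest cells and is also made by vascular and stromal cells, had 31, 14 and 24 counts in control, 104, 274 and 86 in DSS and 24, 32 and 31 in DSS + EA mice. DSS mice lay above both other groups, which overlapped. Ednrb was 5.53-fold higher in DSS than in control mice (log2 fold change 2.47, standard error 0.37, adjusted p = 0.000836) and 4.14-fold lower in DSS + EA than in DSS mice (log2 fold change -2.05, standard error 0.36, adjusted p = 0.00286). Hand2, a transcription factor of enteric neurons and of gut mesenchyme, had 25, 22 and 13 counts in control, 70, 73 and 48 in DSS and 15, 28 and 15 in DSS + EA mice, with DSS again apart. Hand2 was 2.83-fold higher in DSS than in control mice (adjusted p = 0.00785) and 2.72-fold lower in DSS + EA than in DSS mice (log2 fold change -1.44, standard error 0.35, adjusted p = 0.0118), the latter call lost without DSS + EA mouse 3 at an adjusted p of 0.0501. Hand2os1, on the opposite strand, shares 461 exonic bases with it.

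Gfra2, the neurturin co-receptor, had 24, 15 and 18 counts in control, 15, 23 and 13 in DSS and 13, 11 and 16 in DSS + EA mice, overlapping throughout (-0.36, standard error 0.28, and -0.08, standard error 0.29). Ret, the signalling receptor of the GDNF family, had 3 to 8 counts in control, 7 to 23 in DSS and 5 to 9 in DSS + EA mice. Gfra1, the GDNF co-receptor, had 4 to 15 counts in any mouse. Neither of the latter was tested.

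Glial genes went in different directions. Gfap, the glial intermediate filament that rises in reactive glia, had 8, 6 and 3 counts in control, 19, 30 and 38 in DSS and 11, 4 and 5 in DSS + EA mice. The DSS mice lay above all others, which overlapped. Gfap was 4.54-fold higher in DSS than in control mice (log2 fold change 2.18, standard error 0.45, adjusted p = 0.00402) and 3.69-fold lower in DSS + EA than in DSS mice (log2 fold change -1.88, standard error 0.44, adjusted p = 0.00927). S100b, a calcium-binding protein of most enteric glia, had 10, 10 and 14 counts in control, 13, 13 and 7 in DSS and 6, 7 and 11 in DSS + EA mice, and the groups overlapped (-0.26, standard error 0.42, adjusted p = 0.642, and -0.20, standard error 0.43, adjusted p = 0.737). Sox10 had 2 or 3 counts in control, 0 or 1 in DSS and 1 or 2 in DSS + EA mice, all at or under the floor of 3 counts. Cdh19, a cadherin of neural crest derivatives, had 1 to 8 counts, and Fabp7, a glial fatty acid binding protein, 0 to 16.

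Erbb3, the neuregulin receptor of glia and of colon epithelium, had 221, 153 and 200 counts in control, 127, 48 and 40 in DSS and 161, 121 and 120 in DSS + EA mice. Control mice were above every DSS mouse, and DSS and DSS + EA mice overlapped through DSS mouse 1. Erbb3 was 2.9-fold lower in DSS than in control mice (log2 fold change -1.54, standard error 0.46, adjusted p = 0.0223), a call lost without control mouse 3, DSS mouse 2 or DSS mouse 3, with values of -2.44 to -1.18 over the 9 fits. The difference between DSS + EA and DSS mice was 1.06 with a standard error of 0.45 (adjusted p = 0.0914). The 11 epithelial genes summed to 11006 to 12203 CPM in control, 2532 to 10846 in DSS and 10245 to 11099 in DSS + EA mice, the highest DSS value again in mouse 1. Per 1000 epithelial counts, Erbb3 gave 5.05, 4.62 and 6.28 in control, 3.77, 2.27 and 4.93 in DSS and 4.42, 4.41 and 3.48 in DSS + EA mice, where control and DSS overlapped. The part of the epithelium in the Erbb3 result was not tested.

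**Figure D4:**
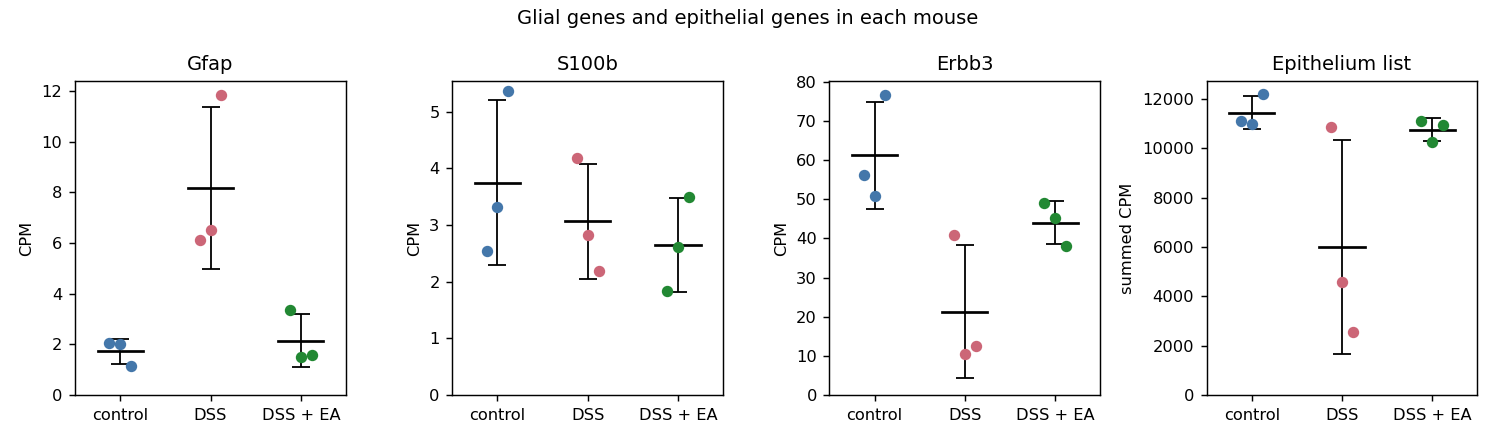
CPM of Gfap, S100b and Erbb3 in each mouse and the summed CPM of 11 epithelial genes, with group mean (wide line) and SD (3 mice a group). Gfap is highest in the DSS mice, S100b overlaps between groups, and DSS mouse 1 holds the highest value of its group in both Erbb3 and the epithelial sum.

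Of the 3 pacemaker genes, Kit and Ano1 were lower in DSS than in control mice and Etv1 did not pass the test. Kit lies at chr5:75574916-75656722 on the plus strand and had 79, 65 and 82 counts in control, 21, 27 and 21 in DSS and 31, 48 and 27 in DSS + EA mice. The groups did not overlap, with the DSS + EA mice between the others. Kit averaged 24.4 ± 6.16, 6.39 ± 0.466 and 12 ± 5.17 CPM (SD, n = 3) and was 3.79-fold lower in DSS than in control mice (log2 fold change -1.92, standard error 0.33, adjusted p = 0.00151). Its differences between DSS + EA and DSS mice (0.90, standard error 0.33, adjusted p = 0.0597) and between DSS + EA and control mice (-1.03, standard error 0.31, adjusted p = 0.119) did not pass the test.

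Ano1 lies at chr7:144588549-144751974 on the minus strand. It had 166, 110 and 80 counts in control, 35, 52 and 20 in DSS and 62, 59 and 64 in DSS + EA mice, also in 3 groups that did not overlap on the CPM scale. Ano1 was 3.78-fold lower in DSS than in control mice (log2 fold change -1.92, standard error 0.26, adjusted p = 0.000489). It was the 1 gene of the 25 that was higher in DSS + EA than in DSS mice, by 2.11-fold (log2 fold change 1.08, standard error 0.26, adjusted p = 0.0115), a call kept when any 1 mouse was left out, and the difference of -0.84 from control mice did not pass (adjusted p = 0.108). Per 1000 epithelial counts, Ano1 gave 3.8, 3.32 and 2.51 in control and 1.04, 2.46 and 2.47 in DSS mice. The DSS + EA mice gave 1.7, 2.15 and 1.86. On that scale DSS mice lay below every control mouse, while DSS and DSS + EA mice overlapped. The part of the epithelium in the Ano1 result was not tested. Etv1, a transcription factor of some interstitial cells of Cajal, had 10, 16 and 11 counts in control, 22, 27 and 12 in DSS and 16, 6 and 8 in DSS + EA mice. Its groups overlapped, with differences of 0.49 (standard error 0.42) and -0.77 (standard error 0.43).

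Smooth muscle genes were also lower in DSS than in control mice. The 12 genes of the smooth muscle list summed to 3190 to 3951 CPM in control, 1344 to 2485 in DSS and 2465 to 2517 in DSS + EA mice, and 8 of the 11 tested were lower in DSS than in control mice, with a median log2 fold change of -1.01. In DSS + EA against DSS mice 2 of the 11 were higher, and the summed levels of those groups overlapped. The part of smooth muscle in the Kit and Ano1 results was not tested. Per 1000 smooth muscle counts, Kit gave 5.08, 5.69 and 9.85 in control, 3.36, 4.37 and 2.64 in DSS and 3.75, 7.27 and 3.43 in DSS + EA mice. Ano1 gave 10.7, 9.63 and 9.61 in control, 5.6, 8.41 and 2.51 in DSS and 7.5, 8.94 and 8.14 in DSS + EA mice. On this scale DSS mice still lay below every control mouse for both genes. When all genes were scaled to the smooth muscle counts of each mouse, the median of all genes rose to 1.01 in DSS against control, with 6224 of 12566 genes called higher and 560 lower, and the calls of lower Kit (-0.99, adjusted p = 0.0626), Ano1 (-0.87, adjusted p = 0.0758) and Erbb3 (-0.64, adjusted p = 0.251) were lost. Of the genes of related lists named below, Pcsk1 (-0.60), Ddc (-0.30), Pmp22 (-0.46), Mal (-0.50), Edn3 (-0.89), Chrm1 (-1.21) and Kitl (0.0079) also lost their call of lower in DSS than in control mice on this scale. The higher Ano1 in DSS + EA than in DSS mice was also lost (0.58, adjusted p = 0.272), as was the lower Uchl1 in DSS + EA than in control mice (-0.26, adjusted p = 0.568). Kit is made by mast cells too, and the mast cell list summed to 0.766 to 5.32 CPM in control, 5.79 to 30.6 in DSS and 8.88 to 13.1 in DSS + EA mice. The part of mast cells in the Kit result was not tested.

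**Figure D5:**
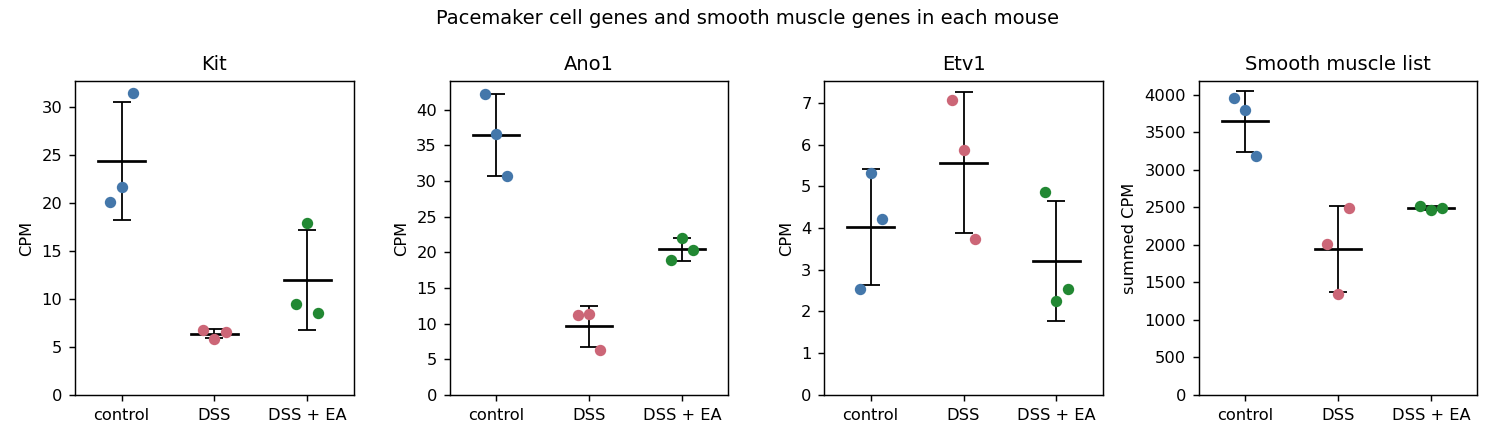
CPM of Kit, Ano1 and Etv1 in each mouse and the summed CPM of 12 smooth muscle genes, with group mean (wide line) and SD (3 mice a group). Kit and Ano1 are highest in control, lowest in DSS and between in DSS + EA mice, and the smooth muscle sum is highest in control mice.

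Genes for ligands of these receptors, listed with the enzyme gene Ece1, changed in both directions. Of 12, 6 were tested, and in DSS against control mice 2 were higher, Ece1 among them, and 2 lower. Nrg1, the ligand of Erbb3, had 3, 5 and 7 counts in control, 92, 205 and 79 in DSS and 10, 22 and 16 in DSS + EA mice, where DSS mice were far above the rest. Nrg1 rose by 4.33 on the log2 scale in DSS mice (standard error 0.49, adjusted p = 0.00019) and was lower in DSS + EA than in DSS mice by -2.61 (adjusted p = 0.00176). Edn3, the ligand of Ednrb, went the other way, with 47, 57 and 47 counts in control, 15, 19 and 15 in DSS and 18, 21 and 18 in DSS + EA mice. It was lower than in control mice both in DSS (-1.83, standard error 0.28, adjusted p = 0.00095) and in DSS + EA mice (-1.36, standard error 0.28, adjusted p = 0.0276). The DSS + EA call was kept in 4 of the 9 fits that left out a mouse, with an adjusted p up to 0.131. Ece1, which cleaves endothelin precursors, was higher in DSS than in control mice (1.17, adjusted p = 0.00288) and lower in DSS + EA than in DSS mice (-1.11, adjusted p = 0.0051). Kitl, the ligand of Kit, had 218, 212 and 180 counts in control, 140, 105 and 120 in DSS and 206, 152 and 181 in DSS + EA mice. Kitl was lower in DSS than in control mice (-0.89, standard error 0.25, adjusted p = 0.017), a call lost without control mouse 2 or 3. It was higher in DSS + EA than in DSS mice (0.75, adjusted p = 0.039), a call kept in 2 of the 9 fits that left out a mouse.

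Receptors for the transmitters were mostly too sparse. Of 20, 6 were tested, and 1 was lower in DSS than in control mice. That gene, the muscarinic receptor Chrm1, had 12 to 19 counts in control, 0 to 9 in DSS and 4 to 8 in DSS + EA mice (-2.24, standard error 0.62, adjusted p = 0.0169), and its call was lost without control mouse 1 or DSS mouse 3. Of 10 genes that process peptides or clear transmitters, 6 were tested. Pcsk2, a prohormone convertase, and Scg5, its chaperone, were higher in DSS than in control mice (1.28, adjusted p = 0.031, and 1.09, adjusted p = 0.00401). In DSS + EA mice both were lower than in DSS mice (-1.90, adjusted p = 0.00876, and -1.06, adjusted p = 0.00599). Pcsk1, the other main convertase of this kind, was lower in DSS than in control mice (-1.53, adjusted p = 0.00914). The Pcsk2 call was lost without control mouse 1 or 2 or DSS mouse 2.

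Of 48 further neuronal genes, 25 were tested, and 4 were higher and 7 lower in DSS than in control mice, with a median log2 fold change of 0.20. These were 16% and 28% of the 25, against 21.5% and 19.5% of all genes tested, so this list held no excess of higher genes. In DSS + EA against DSS mice 1 was higher and 10 lower, with a median of -0.95. These were 4% and 40% of the 25, against 17.2% and 18.3% of all genes tested. Cartpt, the precursor of the enteric peptide CART, was counted 17, 27 and 19 times in control, 48, 112 and 60 times in DSS and 20, 15 and 15 times in DSS + EA mice, and rose by 1.53 on the log2 scale (standard error 0.31, adjusted p = 0.00395). Thy1, a surface protein of neurons, T cells and fibroblasts, and Dbh, which makes noradrenaline, rose by 1.66 and 1.87, and the Dbh call was lost without control mouse 1 or 2 or DSS mouse 2. Pcp4, a calmodulin-binding protein, had 95, 65 and 88 counts in control, 14, 11 and 14 in DSS and 62, 41 and 26 in DSS + EA mice, and was lower in DSS than in control mice (-2.83, adjusted p = 0.000471) and higher in DSS + EA than in DSS mice (1.93, adjusted p = 0.00491). Nmu, the precursor of the excitatory peptide neuromedin U, had 46, 54 and 39 counts in control but 5, 3 and 9 in DSS and 4, 7 and 4 in DSS + EA mice. It was lower than in control mice in DSS (-3.17, adjusted p = 0.000742) and in DSS + EA mice (-3.13, adjusted p = 0.00784). The DSS + EA call was lost without DSS + EA mouse 3, at an adjusted p of 0.0551. Ddc, a decarboxylase of aromatic amines also made by enteroendocrine cells, was lower in DSS mice (-1.26, adjusted p = 0.00379).

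Further glial genes likewise split. Of 16, 9 were tested, with 3 higher and 2 lower in DSS than in control mice. Gpm6b, a membrane protein of glia and neurons, was counted 11, 14 and 7 times in control, 76, 113 and 114 times in DSS and 20, 16 and 27 times in DSS + EA mice, and rose by 3.05 with DSS (standard error 0.31, adjusted p = 0.000125). Matn2, a matrix protein, rose by 2.52. Pmp22 and Mal, myelin proteins that colon epithelium also makes, were lower in DSS than in control mice (-1.40 and -1.46), the Mal call being lost without control mouse 3, DSS mouse 2 or DSS mouse 3. In DSS + EA against DSS mice 2 of the 9 were higher and 3 lower, against 17.2% and 18.3% of all genes tested. Mal was among those higher (2.78, adjusted p = 0.0013), and Gpm6b and Matn2 among those lower (-2.02 and -1.77). Mal did not pass against control mice (1.32, adjusted p = 0.099). Pmp22 was lower in DSS + EA than in control mice (-0.95, adjusted p = 0.0374), a call kept in 3 of the 9 fits that left out a mouse. Among 4 tested genes of 8 linked to pacemaker cells and to the PDGFRA-positive cells that also act on smooth muscle, Pdgfra (2.26, adjusted p = 8.64e-05) and the connexin Gja1 (1.66, adjusted p = 0.000786) were higher and the purine receptor P2ry1 (-2.44, adjusted p = 0.00185) was lower in DSS than in control mice. Pdgfra also marks fibroblasts.

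Other cell types of the colon wall moved at the same time. Fibroblast genes summed to 817 to 881 CPM in control, 4145 to 6853 in DSS and 1671 to 1753 in DSS + EA mice, with 7 of 7 higher in DSS than in control mice. Endothelial genes summed to 33.7 to 43.2, 78.5 to 110 and 38.1 to 41.1 CPM, and leukocyte genes to 408 to 461, 919 to 3094 and 670 to 827 CPM. Enteroendocrine genes, whose cells share peptide-processing genes with neurons, overlapped at 474 to 662, 421 to 847 and 553 to 852 CPM. These sums are given beside the neuronal, glial and stromal genes above, and their part in those results was not tested. Leaving out DSS mouse 1, DSS + EA mouse 2 or DSS + EA mouse 3 let Snap25 pass the filter, so that 26 genes were tested. Without DSS mouse 1, whose levels of neutrophil and epithelial genes were nearest to those of the other groups, 14 of the 26 were higher and 3 lower in DSS than in control mice. Snap25 was among the 14, but it passed the filter through DSS mice 2 and 3, with 20 and 19 counts. Its call therefore adds no support beyond the genes tested with all 9 mice. More of all genes tested were also called in each direction in that fit than with all 9 mice. In DSS + EA against DSS mice, 16 of the 26 were lower without DSS + EA mouse 2 and 11 without DSS + EA mouse 3. The shares of all genes called in those fits are not given, so these counts show only how far the calls were kept. With the pancreatic genes left out of the table, an alternative chosen after seeing the data, 73 of 74 single-gene results kept their direction and their side of the threshold, and 1, the lower Nefm in DSS + EA than in DSS mice, was newly called.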

How the data were processed

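Total RNA from the colon of 3 mice per group was read as full-length PCR-amplified cDNA on a nanopore platform. The authors deposited whole-number counts per gene, with no normalization, in 1 table of 27733 lines, of which 14 held annotation text in place of counts and were skipped. The submitters' processing notes name the build mm10, while the aligner, the counting tool and its use of strand are not given in the sources used here. Counts carry PCR copies, since no molecular identifiers are described. The labels number the mice without saying more of their origin, so p-values measure the spread between these samples.

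Counts were analysed in R 4.3.3 with edgeR 4.0.16: filterByExpr by group (12566 genes kept), TMM factors, and the quasi-likelihood F test with group as the only term over all 9 libraries, with Benjamini-Hochberg adjustment and a threshold of 0.05. CPM values use TMM library sizes. The scripts were tested on simulated data. Alternatives were other scalings and filters, DESeq2 1.42.0, the named groups alone, the study's cut, leaving out each mouse in turn, and a block for replicate number. All 34 genes are accounted for. Genes called in DSS against control or DSS + EA against DSS, and others with a mean of 10 or more counts, have counts given, the lowest of them as a range. Related lists have up to 3 called genes named per direction of DSS against control, ranked by P, and 1 gene that this rule would name is not reported here. The genes and lists were chosen with earlier results of these data known. Positions are from GENCODE on GRCm38 and start regions from RefSeq on GRCm38.p6.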

Additional observations from a re-analysis of the deposited data

How the results depend on the processing

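Counts of 3 mice a group and 2627695 to 4235576 counts a library limit the sparse genes most, and 9 of the 34 could not be tested. RLE factors, library totals, a mean of at least 20 counts and leaving out pancreatic genes kept every count of called genes within 1.5 times its value, as did DESeq2 on all 34 genes (10 higher and 3 lower in DSS against control, 1 and 14 in DSS + EA against DSS, 1 and 1 in DSS + EA against control). DESeq2 did not call the rises with DSS of the structural genes Syt1, Prph and Gap43. The cut of log2 fold change beyond 2.5 with unadjusted P under 0.01 left 0 higher and 0 lower in DSS against control (10.2% of all genes), 0 higher and 1 lower in DSS + EA against DSS, and 0 and 0 in DSS + EA against control (2.08% of all genes), where edgeR gave 1 and 1. Scaling to smooth muscle counts moved the median of all genes to 1.01, -0.47 and 0.54 in the 3 comparisons. On that scale 17 of the 25 genes were higher and 0 lower in DSS against control (median 1.76), where 6224 of all 12566 genes were higher and 560 lower, 0 higher and 17 lower in DSS + EA against DSS (median -1.63), where 802 of all genes were higher and 2988 lower, and 2 higher and 0 lower in DSS + EA against control (median 0.0851, a reversal), where 890 and 36 of all genes were called. It also reversed DSS against control for S100b (0.68), Nefm (0.75), Nefl (0.41), Gfra2 (0.63), Stmn3 (0.91) and Kitl (0.0079). For DSS + EA against control, no gene was lower without a low count filter (0), and 2 were higher and 4 lower when those 2 groups were fitted alone. The cause of these shifts was not tested. Leaving out each mouse, with 25 or 26 of the genes tested, gave 9 to 14 higher and 2 to 3 lower genes in DSS against control, 1 to 2 higher and 11 to 16 lower in DSS + EA against DSS, and 0 to 1 higher and 0 to 2 lower in DSS + EA against control. It reversed DSS against control for S100b (-0.55 to 0.036, above 0 without control mouse 3), Nefm (-0.48 to 0.026, above 0 without DSS mouse 1) and Elavl4 (-0.15 to 0.29, below 0 without control mouse 3 or DSS mouse 3, where it was -0.11), and DSS + EA against DSS for S100b (-0.48 to 0.085, above 0 without DSS mouse 1), none of them called. Mice with the same number are different animals, and the correlations of their deviations from the group means ran from -0.16 to 0.105, so that the numbers were not taken as pairs. With the replicate number as a block, 12 genes were higher and 3 lower in DSS against control, 1 and 13 in DSS + EA against DSS, and 1 and 0 in DSS + EA against control. Where no share or count of all genes is given, these counts show only how far the calls were kept. They do not show an excess over all genes tested in the same fit.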
